A study of Mus musculus with 6 samples.

Results

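Macrophages of the omentum were set beside macrophages of the mesenteric fat 24 h after ovarian cancer cells were injected into the peritoneal cavity. The genes compared were chosen by abundance alone. Every gene with an FPKM (fragments per kilobase of transcript and 1000000 aligned reads, a level corrected for transcript length and library size) of at least 10 in the omental or the mesenteric library at 24 h was kept, which gave 7301 of the 23946 genes of the table. Cd74, the invariant chain of MHC class II, was left out. It was listed at 0 in the omental 24 h library but at 26905 and 15010 FPKM in the naive and 7 d omental libraries, and at 11323 to 14370 in the 3 mesenteric ones.

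Macrophages of the omentum (OM) and of the mesenteric fat (MY) were sorted as CD45+CD11b+F4/80+ cells from C57BL/6 mice, given in the methods as female and 6-8 weeks old. Mice were naive (0 h, no injection) or had received ID8 cells, a mouse ovarian carcinoma line of the same strain, into the peritoneal cavity 24 h or 7 d earlier. Each of the 6 conditions is 1 sample with 1 column of values, called a library here, and macrophages of 3 animals were pooled as far as the study describes it for the omentum. Its reporting summary speaks of 3 such pools for RNA sequencing, and whether a column holds 1 pool or several is not stated. Differences between libraries therefore carry no replicate error, no test was possible, and every value below describes these libraries only.

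The omentum is a fold of peritoneal fat that holds clusters of immune cells, the milky spots, which lie beneath a layer of mesothelium and sample the peritoneal fluid. The mesentery carries the vessels of the gut through similar fat and has fewer such clusters. Macrophages of serous cavities and fat clear lipid, debris and microbes, and they recruit other leukocytes through chemokines.

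The FPKM of a library summed to between 526887 and 713863, OM 24h having the highest sum and MY 24h 572553. The methods give the number of reads only as a range over the samples, and the table holds no read counts, so the reads behind a single value are not known. A rough estimate from the steps of low values put the 6 libraries between 0.859 and 1.49 times the depth of MY 0h, with OM 24h at 1 and MY 24h at 1.22. The genes of the 3 sort markers were present in both 24 h libraries. Ptprc, which encodes CD45, was at 182, 106 and 124 in the omentum and 188, 158 and 208 in the mesentery, with each triplet giving naive, 24 h and 7 d in that order, here and below. Itgam, which encodes CD11b, was at 91.2, 151 and 58.7 in the omentum and 32.6, 52 and 27.8 in the mesentery. Emr1, which encodes F4/80, was at 27.4, 135 and 26.5 in the omentum and 20.5, 68.6 and 37.5 in the mesentery. Both macrophage genes were higher in the omentum at 24 h, and Ptprc was lower.

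Of the 7301 genes, 1745 (23.9%) were at least 2-fold apart between OM 24h and MY 24h, a difference of at least 1 on the log2(FPKM + 1) scale used throughout. The omentum was the higher side for 1022 of them (14.0%) and the lower side for 723 (9.90%). With both libraries rescaled to a common FPKM sum, as TPM (transcripts per 1000000), the split turned to 780 higher and 1139 lower, because the median difference over all genes moved by -0.31. Counts at 2-fold therefore depend on the scaling, although no named gene that was 2-fold apart at 24 h changed its direction under it. Between the naive libraries, 1201 of the same genes (16.4%) were 2-fold apart, 627 higher in the omentum (8.59%) and 574 lower (7.86%). At 7 d the count was 1109 (15.2%), with 702 higher (9.62%) and 407 lower (5.57%). These shares over all genes are the reference for the counts of gene lists below. The limit of 10 FPKM fell between Nfatc2, at 10.0017 FPKM in MY 24h and lower in OM 24h, and Icos, at 9.99682 in MY 24h.

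Much of the gap seen at 24 h was not there in naive animals. Of the 1745 genes, 895 (51.3%) had no 2-fold gap of the same direction in naive animals. The share was 569 of 1022 (55.7%) for genes higher in the omentum and 326 of 723 (45.1%) for genes lower in it. Among the 569, the naive difference had the same sign but was below 2-fold for 415 and had the other sign or was 0 for 154, of which 21 were 2-fold apart the other way. Among the 326, those numbers were 266, 60 and 3. Summed over the 1745 genes, 47.6% of the absolute difference at 24 h was absent between the naive libraries, 52.2% for the higher genes and 40.5% for the lower ones. The median difference of the 1022 higher genes was 1.80 at 24 h and 0.87 when naive. For the 723 lower genes it was -1.74 at 24 h and -1.09 when naive.

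With the naive limit kept at 2-fold, the share of gaps already present when naive was larger among wider gaps than among all of them. On the higher side, 44.3% of the genes at least 2-fold apart at 24 h had been 2-fold higher when naive, and 62.4%, 69.1%, 72.9% and 86.0% of those at least 4-, 8-, 16- and 32-fold apart. On the lower side the share was 54.9% at 2-fold, 81.0% at 4-fold, 87.8% at 8-fold, 82.4% at 16-fold and 87.0% at 32-fold, so it did not go up at each step. The groups at 32-fold held 50 higher and 23 lower genes. With the naive limit moved along with the limit at 24 h, the share present did not go up from 2-fold to 4-fold on either side. The share absent when naive was then 52.6%, 55.7% and 62.2% on the higher side at 1.5-, 2- and 4-fold. On the lower side it was 47.8%, 45.1% and 46.6%. In the reverse direction, 7055 genes reached the FPKM limit in OM 0h or MY 0h, and 1156 of them (16.4%) were 2-fold apart there, 602 higher (8.53%) and 554 lower (7.85%) in the omentum. Of these 1156, 748 (64.7%) were still 2-fold apart, the same way, at 24 h.

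**Figure D1:**
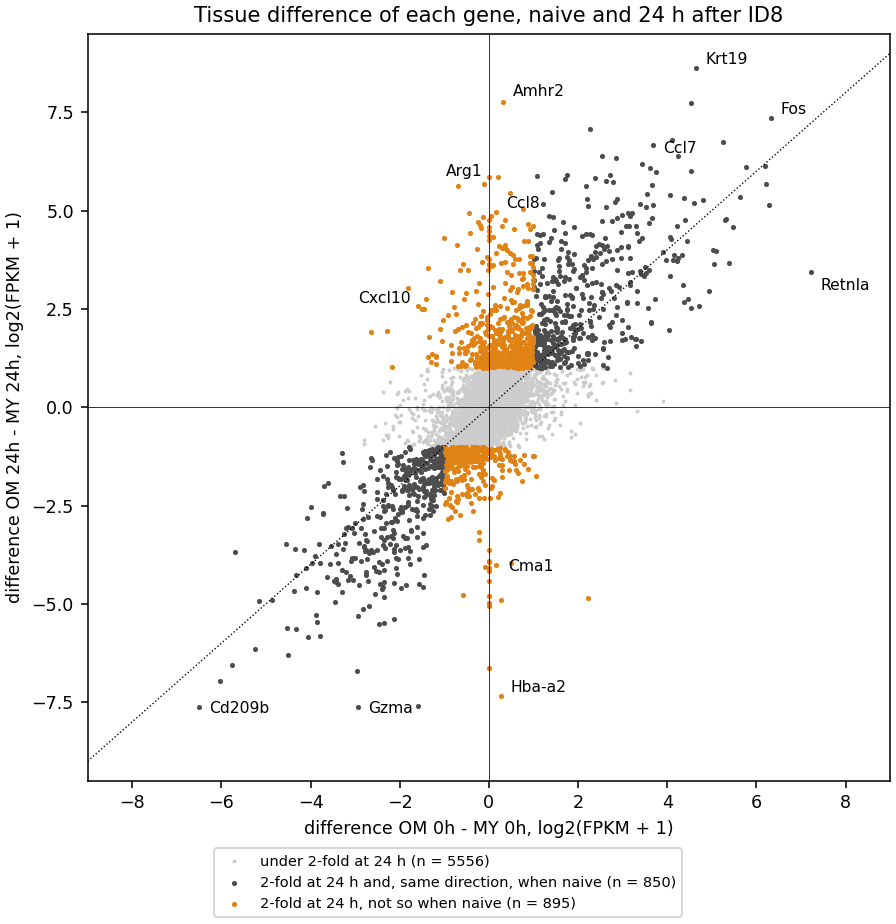
Difference between omentum and mesentery for each of the 7301 genes, in naive animals (horizontal) and 24 h after ID8 (vertical), both on the log2(FPKM + 1) scale, with 1 library per condition. The 895 orange genes were 2-fold apart at 24 h and not so when naive, and Amhr2 and Arg1 stand high above a naive difference near 0, whereas Cd209b and Fos lie near the dotted line of equal difference.

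The omental library moved further from its naive state than the mesenteric one. Between OM 24h and OM 0h, 1357 of the 7301 genes (18.6%) were 2-fold apart, 928 higher at 24 h (12.7%) and 429 lower (5.88%). Between MY 24h and MY 0h the count was 339 (4.64%), 242 higher (3.31%) and 97 lower (1.33%). For the 569 genes higher in the omentum at 24 h and not so when naive, the median change from naive was 1.27 in the omentum and -0.03 in the mesentery. For the 326 lower genes it was -0.72 in the omentum and 0.15 in the mesentery. These comparisons share the 24 h libraries with the gap itself, so the medians describe its make-up and are no separate evidence for it.

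Several of the widest gaps belonged to genes that mark mesothelium, the flat epithelium that lines the peritoneum. All 10 mesothelial genes that passed the FPKM limit were higher in the omentum at 24 h, and all 10 were also 2-fold higher when naive. Krt19, a keratin of simple epithelia, was at 25.4, 406 and 349 in the omentum and 0.0546, 0.0227 and 0.105 in the mesentery. Its difference of 8.63 at 24 h, against 4.64 when naive, was the largest of all genes above 0 in both libraries. Upk3b, a uroplakin that marks mesothelium, was at 23.7, 215 and 259 in the omentum and 0.0682, 0.014 and 0.0669 in the mesentery. Krt8 and Krt18, the paired keratins of simple epithelia, stood at 129.8 against 0.176 and 145 against 0.823 FPKM in the 24 h libraries of omentum and mesentery. In each of these genes the 3 omental libraries lay above the 3 mesenteric ones. Summed over the 14 listed mesothelial genes, the level was 152, 1085 and 1254 FPKM in the omentum and 1.86, 2.12 and 2.39 in the mesentery, where Lrrn4 and Bnc1 were listed at 0 at 24 h. In such bulk libraries, fewer cells of a type and less RNA per cell cannot be told apart, and neither can RNA of another cell type carried through the sort. After the injection, RNA of the injected ID8 cells cannot be told apart from that of mesothelium either. The study stained ID8 cells in the omentum for the keratins that Krt8 and Krt18 encode. The part of ID8 cells in these values was not tested, and neither was the part of mesothelial cells in the other gaps.

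Amhr2, which encodes the receptor of anti-Mullerian hormone, gave the second largest higher gap and was below 1 FPKM before the injection. It was at 0.397, 223 and 315 in the omentum and 0.114, 0.0313 and 0.0591 in the mesentery, a difference of 7.76 at 24 h against 0.33 when naive. In the NCBIM37 assembly (mm9) it lies at chr15:102275798-102285061 on the plus strand. Like the mesothelial genes, it was high in the omentum at both 24 h and 7 d. Tm4sf1, a surface tetraspanin-like protein, was at 4.63, 156 and 97.8 in the omentum and 0.172, 0.163 and 0.138 in the mesentery. Tmem98, a membrane protein, was at 104 against 0.246 FPKM in the omentum and the mesentery at 24 h, a difference of 6.39.

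Matrix genes were also far higher in the omentum. For fibroblast genes the gap was as wide when naive. All 6 fibroblast genes that passed were 2-fold higher at 24 h and when naive, with medians of 4.74 and 4.77. Col3a1, a fibrillar collagen chain, was at 80.5, 62.8 and 242 in the omentum and 0.0973, 0.256 and 0.157 in the mesentery. Dcn, the collagen-binding proteoglycan decorin, was at 189, 109 and 782 in the omentum and 1.46, 2.1 and 1.61 in the mesentery. Neither was higher in OM 24h than in OM 0h. Sparc, a secreted collagen-binding protein, was at 43.1, 231 and 311 in the omentum and 1.33, 1.77 and 1.38 in the mesentery and reached a difference of 6.39, and Pcolce, which helps to cleave procollagen, reached 6.19 at 24 h against 3.44 when naive. Of 19 genes of matrix proteases and their inhibitors, 14 were higher and 3 lower at 24 h, with 9 and 3 when naive, and their median difference was 2.55 at 24 h against 0.66 when naive. Timp1, an inhibitor of metalloproteases, was at 0.788, 28.3 and 8.48 in the omentum and 0.237, 1.01 and 0.281 in the mesentery, and Adamdec1, a protease of gut macrophages, ran the other way at 1.42 against 33.5 in OM 24h and MY 24h.

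Genes that define macrophages were higher in the omentum after 24 h, and 7 of the 13 that were 2-fold apart had no 2-fold lead when naive. Of the 18 core macrophage genes, 13 were at least 2-fold higher and none was lower at 24 h, against 6 and 0 when naive, with a median difference of 1.73 at 24 h, 0.69 when naive and 0.11 at 7 d. The median over all 7301 genes was 0.04 at 24 h, 0.04 when naive and -0.08 at 7 d. Apoe, the apolipoprotein that macrophages secrete to export lipid, was at 2379.9, 17332 and 1944 in the omentum and 1202, 2166 and 1449.7 in the mesentery. Lyz2, lysozyme of myeloid cells, was at 7054, 24779.6 and 6791 in the omentum and 2968, 3578 and 2571 in the mesentery. Fcgr1, the high-affinity receptor for IgG, was at 7.38, 66 and 15 in the omentum and 3.92, 5.87 and 3.65 in the mesentery. Cd14, which passes bacterial lipopolysaccharide to Toll-like receptor signalling, was at 141, 693 and 126 in the omentum and 7.33, 34.9 and 11.2 in the mesentery. OM 24h held the highest value of the 6 libraries for each of these 4 genes, but only Cd14 and Lyz2 were already 2-fold apart when naive, at 4.09 and 1.25. Apoe and Fcgr1 were higher in the naive omentum too, by 0.98 and 0.77. Summed FPKM of the list was 13251, 59252 and 11547 in the omentum and 7169.5, 11432 and 6852 in the mesentery.

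Lysosomal and lipid-handling genes were higher in the omentum at 24 h as well. Of 24 genes of cathepsins and other lysosomal proteins, 13 were higher and 1 was lower at 24 h, against 5 and 1 when naive, and the median difference was 1.29, 0.39 and 0.06 at 24 h, when naive and at 7 d. Lgmn, a lysosomal cysteine protease, was at 60.5, 467 and 65.3 in the omentum and 77.2, 106 and 83.5 in the mesentery. Its difference of 2.13 at 24 h compared with -0.35 when naive. Ctsc, the cathepsin that activates granule proteases, was at 329, 797 and 239.9 in the omentum and 136, 143 and 165 in the mesentery. The 1 lower gene of the list, Ctsw, is a cathepsin of cytotoxic lymphocytes and was at 28.1, 2.16 and 25.8 in the omentum and 221, 124 and 141 in the mesentery. Among 22 lipid-handling and scavenger genes, 12 were higher and 2 lower at 24 h, with 7 and 4 when naive and 7 and 3 at 7 d, and the median difference was 1.14, 0.57 and 0.33 at 24 h, when naive and at 7 d. Trem2, a lipid-sensing receptor of macrophages, was at 7.5, 191 and 18.9 in the omentum and 0.813, 4.49 and 0.467 in the mesentery. Spp1, the secreted phosphoprotein osteopontin, was at 7.35, 219.6 and 41.9 in the omentum and 1.5, 2.67 and 1.66 in the mesentery. Both were highest in OM 24h, and at 7 d they still differed by 3.76 and 4.01.

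Genes of tissue-resident macrophages of the peritoneum and fat were mostly higher in the omentum. Of 19, 13 were higher and 3 lower in the omentum at 24 h, and 14 and 2 when naive, so most of these 2-fold gaps were present before the injection. The median difference was 3.21 at 24 h, 1.91 when naive and 1.06 at 7 d. All genes named below are from the higher side, and the widest lower gap at 24 h was -3.64. Summed over the 23 listed genes, the level was 957, 2041 and 383 FPKM in the omentum and 400, 1012 and 470 in the mesentery. Fcrls, an Fc receptor-like scavenger gene of resident macrophages, was at 105, 169 and 8.27 in the omentum and 0.451, 1.41 and 0.106 in the mesentery, with a difference of 6.14 at 24 h and 6.19 when naive. Vsig4, a complement receptor, was at 27.8, 37.2 and 1.53 in the omentum and 0.0374, 0 and 0 in the mesentery. Pf4, a chemokine of platelets and resident macrophages, was at 167, 601 and 25.8 in the omentum and 2.79, 23.9 and 1.52 in the mesentery. All of these were below their naive level in the omentum by 7 d. Gas6, a ligand of the TAM receptors that clear dying cells, stayed high at 26.3, 69.9 and 139 in the omentum and 1.17, 0.414 and 1.13 in the mesentery. Gata6, the transcription factor of large peritoneal macrophages, was at 2.06, 15.9 and 36.7 in the omentum and 0.298, 0.245 and 0.201 in the mesentery. Mesothelium expresses Gata6 too, and its part was not tested.

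Cd209b stood out on the side of the mesentery. This gene, which encodes SIGN-R1, a lectin that binds microbial sugars, was at 2.59, 3.95 and 2.63 in the omentum and 324, 976 and 458 in the mesentery, and its gap of -7.62 was -6.50 when naive and -6.98 at 7 d. Of 22 C-type lectin receptors, 17 were higher and 5 lower in the omentum at 24 h, against 14 and 4 when naive. Mgl2, a galactose-binding lectin of macrophages and dendritic cells, was at 127, 149.6 and 57.4 in the omentum and 2.25, 4.54 and 3.38 in the mesentery, so that the largest differences of the family ran in opposite directions. The family lies in gene clusters of close paralogs, for which short reads may be split between members. Apol7c, an apolipoprotein L gene, was at 12.1, 8.26 and 14.1 in the omentum and 853, 1144 and 604 in the mesentery, with a difference of -6.95 at 24 h and -6.03 when naive. It lies at chr15:77355297-77363745 (mm9), next to Apol10b and Apol7b, which were at 0.844 against 46.7 and 0.0715 against 21.9 FPKM in the 24 h libraries of omentum and mesentery. These 3 were the only genes with an apolipoprotein L name to pass the FPKM limit, and all 3 were 2-fold lower in the omentum both at 24 h and when naive. Gm8221, close by at chr15:77452631-77456620 (mm9), was at 0.145 against 106 FPKM in OM 24h and MY 24h, a difference of -6.55. How reads were split between these neighbouring genes was not tested.

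**Figure D2:**
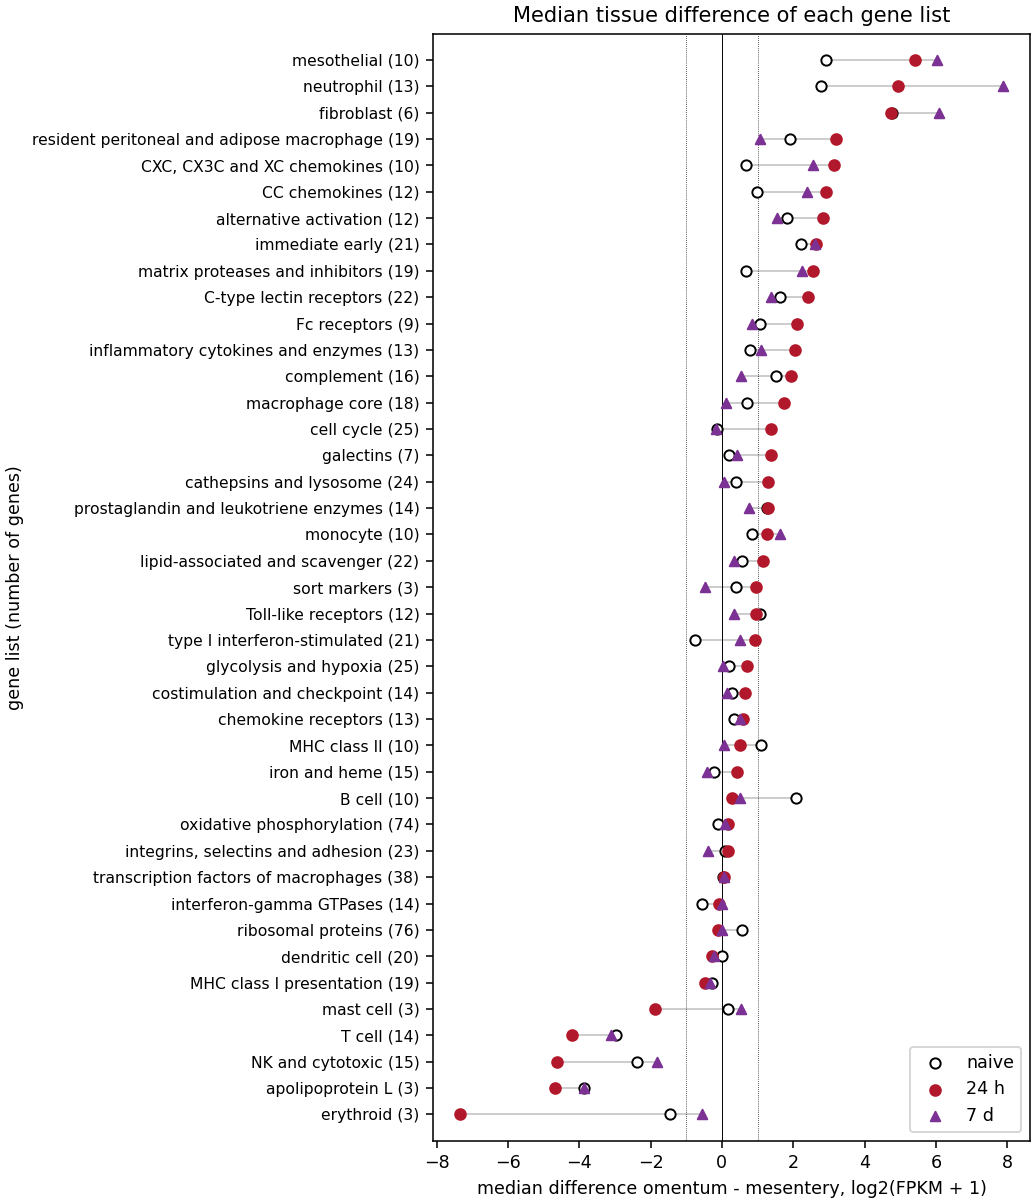
Median difference between omentum and mesentery on the log2(FPKM + 1) scale for each gene list with at least 3 genes past the FPKM limit, in naive animals, at 24 h and at 7 d, with 1 library per condition and the number of genes in parentheses. Cell cycle genes and interferon-stimulated genes were near or below 0 when naive and higher in the omentum at 24 h, with medians of 1.38 and 0.92, whereas T cell and cytotoxic genes were below 0 each time.

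Chemokine genes gave some of the widest gaps between the 24 h libraries. Of the 12 CC chemokines that passed, 9 were higher and 2 lower in the omentum at 24 h, against 6 and 2 when naive, and their median difference was 2.93 against 0.99. The genes named below are all from the higher side, and the widest lower gap at 24 h was -3.64. Summed over the 21 listed genes, the level was 1558, 3804 and 1323 FPKM in the omentum and 2364, 2500 and 1338 in the mesentery. The naive sum was thus larger in the mesentery. Ccl7 and Ccl2 attract monocytes through the receptor CCR2. Ccl7 was at 23.7, 125 and 26.4 in the omentum and 0.931, 0.243 and 0.239 in the mesentery, and Ccl2 was at 29, 130.4 and 55.2 in the omentum and 1.47, 0.937 and 0.403 in the mesentery. Both were under 2 FPKM in each mesenteric library. They lie on chromosome 11 at chr11:81859214-81861027 and chr11:81849073-81850955 (mm9, plus strand), in 1 cluster with Ccl8, at chr11:81928687-81930301. Ccl8 was at 42.2, 681 and 33.1 in the omentum and 16, 22.4 and 7.85 in the mesentery, and its difference was 4.86 at 24 h against 1.34 when naive. Ccl24, an attractant of eosinophils, was at 16.6, 57.3 and 4.99 in the omentum and 0.386, 1.06 and 0.994 in the mesentery.

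The CXC group followed the same direction. Of 10 genes, 8 were higher and 1 lower at 24 h, against 5 and 3 when naive. Cxcl2 and Cxcl1 attract neutrophils. Cxcl2 was at 52, 262 and 71.7 in the omentum and 0.402, 1.45 and 0.271 in the mesentery, a difference of 6.74 at 24 h and 5.24 when naive, and Cxcl1 was at 8.94, 29.4 and 16.5 in the omentum and 0.125, 0.252 and 0.229 in the mesentery. The 1 lower gene was Xcl1, a chemokine of cytotoxic lymphocytes, at 30.8, 0.532 and 37.7 in the omentum and 87.3, 35.2 and 26.1 in the mesentery. Among 13 chemokine receptors, 6 were higher and 4 lower at 24 h, against 4 and 2 when naive. Ccr1, a receptor for several CC chemokines, was at 65.7, 128 and 48.2 in the omentum and 2.81, 8.58 and 5.4 in the mesentery. Ccr7, which guides dendritic cells and T cells to lymph nodes, was at 93.8, 49.2 and 116 in the omentum and 526, 761 and 661 in the mesentery and gave the largest gap of the group, -3.92.

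**Figure D3:**
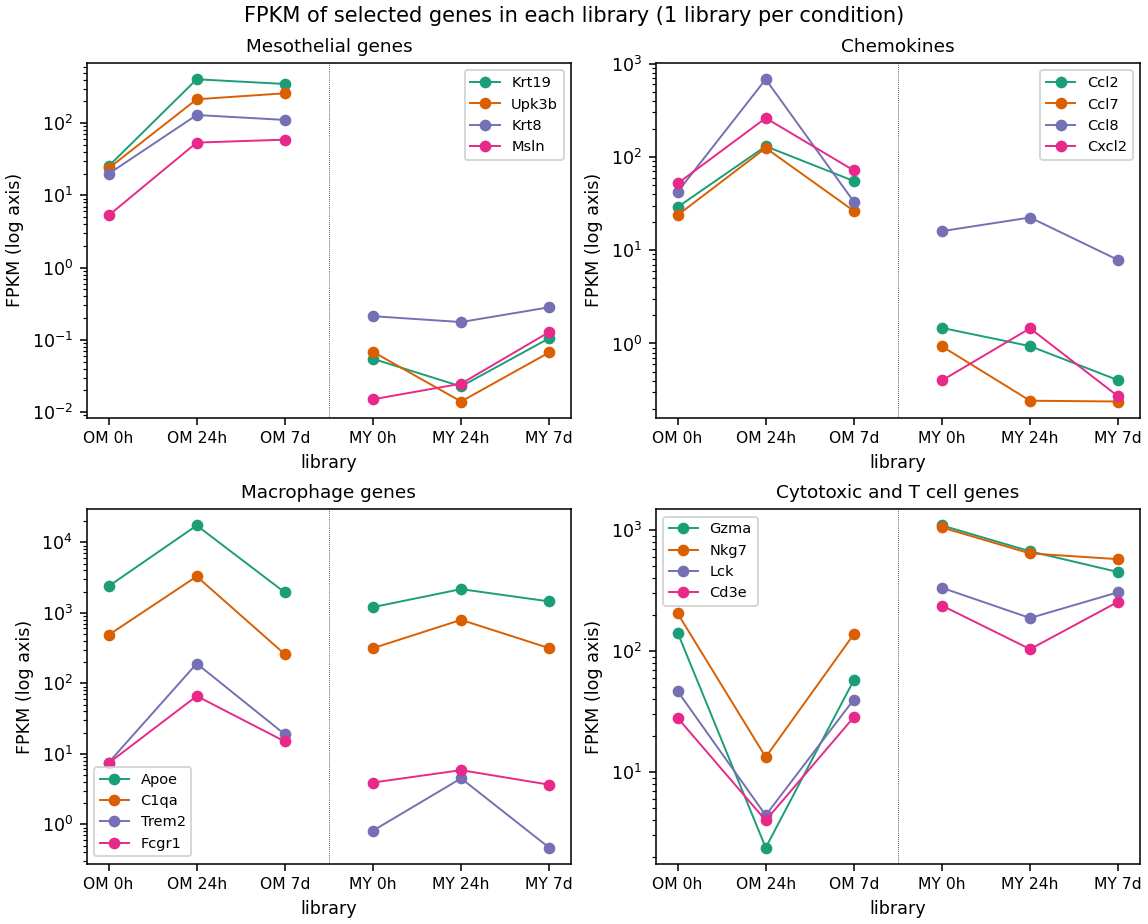
FPKM on a log axis in each of the 6 libraries for 4 mesothelial genes, 4 chemokines, 4 macrophage genes and 4 genes of cytotoxic and T cells, with lines joining the time points of a tissue. Krt19 was at 25.4 FPKM in OM 0h and 406 in OM 24h, chemokines and macrophage genes were highest in OM 24h, and Gzma was lowest there at 2.37.

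Genes of neutrophils were higher in the omentum as well, and the sort does not exclude neutrophils by a marker of their own. Of 13, 11 were higher and none was lower at both 24 h and in naive animals, with a median difference of 4.95 against 2.79, and 7.88 at 7 d. Ngp, a neutrophil granule protein, was at 970.2, 2352 and 2613 in the omentum and 147, 38 and 0.608 in the mesentery. Lcn2, an iron-binding protein of neutrophil granules, was at 370.1, 799 and 724 in the omentum and 49.5, 19.3 and 2.05 in the mesentery. For Ngp and Lcn2, the mesenteric values were lower at each later time point, and those of the omentum lay above naive at both. The whole list was less uniform. From naive to 24 h, 4 of the 13 genes were 2-fold up and 5 were 2-fold down in the mesentery. In the omentum, 11 were up and 1 was down. Summed over the 14 listed genes, the level was 8140.3, 18851 and 20977 FPKM in the omentum and 953, 788 and 249 in the mesentery. The part of these cells in the gap of the chemokines, whose neutrophil attractants Cxcl1 and Cxcl2 stood higher on the same side, was not tested.

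Markers of alternative activation, the state linked to tissue repair, were higher in the omentum for 10 of 12 genes at 24 h and lower for 1, against 8 and 1 when naive. Arg1, the arginase that draws on the substrate of nitric oxide synthesis, was among those whose gap was new. It was at 0.463, 213 and 5.62 in the omentum and 1.37, 3.34 and 1.35 in the mesentery, so that the naive difference of -0.70 became 5.63 at 24 h and was 1.49 at 7 d. Arg1 lies at chr10:24635014-24647276 (mm9, minus strand). Fn1, which encodes fibronectin, was at 94.2, 279 and 57.6 in the omentum and 1.87, 21.4 and 2.99 in the mesentery, and here the gap of 5.05 in naive animals had narrowed to 3.65. Socs2, an inhibitor of cytokine signalling, was the lower gene at 6.81, 4.54 and 10.6 in the omentum and 52.4, 69.1 and 35.1 in the mesentery.

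Among 13 genes of inflammatory cytokines and enzymes, 7 were higher and 1 was lower at 24 h, against 4 and 1 when naive, and the median difference was 2.06 against 0.77. Il1b, the precursor of interleukin-1 beta, was at 112, 249 and 163 in the omentum and 21.7, 20.5 and 12.2 in the mesentery. Osm, a cytokine of the interleukin-6 family, was at 14.2, 76.2 and 37.6 in the omentum and 6.73, 5.11 and 7.82 in the mesentery, a difference of 3.66 at 24 h and 0.98 when naive. Il6 was at 5.21, 12 and 5.02 in the omentum and 1.34, 0.402 and 0.335 in the mesentery. Ptgs2, the inducible cyclooxygenase, was at 8, 16.7 and 13.3 in the omentum and 0.233, 0.108 and 0.184 in the mesentery. OM 24h held the highest value of each of these 4 genes, and MY 24h was below MY 0h in all 4.

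Immediate early genes, which cells induce within minutes of stimulation or handling, were apart to a like degree before and after the injection. Of 21, 17 were higher and none was lower at 24 h, against 18 and 0 when naive, with medians of 2.63 and 2.23. Fos, a subunit of the AP-1 transcription factor, was at 729.8, 1715 and 1129 in the omentum and 8.17, 9.52 and 6.37 in the mesentery, a difference of 7.35 at 24 h, 6.32 when naive and 7.26 at 7 d. Egr1, a zinc finger factor of the same early response, was at 239, 445 and 426 in the omentum and 27.6, 17.4 and 29.8 in the mesentery. The omental libraries lay above all mesenteric ones for both genes at every time. The effect of tissue dissociation on this list was not tested.

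Genes that type I interferon induces were lower in the naive omentum and higher in it at 24 h. Of 21, none was 2-fold higher and 7 were 2-fold lower in the omentum when naive, whereas 8 were higher and 3 lower at 24 h. The median difference was -0.76 when naive, 0.92 at 24 h (0.61 after the rescaling to a common sum) and 0.52 at 7 d. Oasl2, of the family that senses double-stranded RNA, was at 11.7, 41.6 and 44.3 in the omentum and 7.03, 4.33 and 4.31 in the mesentery. Ifi27l2a, an interferon-induced mitochondrial protein, was at 468, 859.9 and 471 in the omentum and 307, 154 and 177 in the mesentery. In both, OM 24h was above OM 0h and MY 24h below MY 0h. Mx1, which blocks virus replication, did not follow and was at 1.47, 2.35 and 3.06 in the omentum and 22.7, 30.3 and 5.1 in the mesentery, with differences of -3.26 when naive and -3.22 at 24 h. Ifit1 and Cxcl10, chosen after their values were seen, were 2-fold apart in opposite directions when naive and at 24 h. Ifit1, which binds foreign RNA caps, was at 3.36, 11.2 and 12.9 in the omentum and 9.53, 3.76 and 4.15 in the mesentery. Cxcl10, an interferon-induced chemokine for T cells, was at 12.1, 124 and 116 in the omentum and 35.1, 21.2 and 13.9 in the mesentery.

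The promoters of both genes are printed because they hold the letters of the interferon-stimulated response element, to which interferon-activated factors are known to bind. The windows are RefSeq sequences of GRCm38.p6, a later build than that of the data, and run from 250 bases before the transcription start to 50 after it, 5′ to 3′ on the strand of the gene. Capitals mark matches, on either strand, to GAAA followed after any 2 bases by another GAAA. Ifit1 (chr19:34640639-34640938, plus strand) has 2 matches, read on the opposite strand, and Cxcl10 (chr5:92348840-92349139, minus strand) has 1.
Ifit1: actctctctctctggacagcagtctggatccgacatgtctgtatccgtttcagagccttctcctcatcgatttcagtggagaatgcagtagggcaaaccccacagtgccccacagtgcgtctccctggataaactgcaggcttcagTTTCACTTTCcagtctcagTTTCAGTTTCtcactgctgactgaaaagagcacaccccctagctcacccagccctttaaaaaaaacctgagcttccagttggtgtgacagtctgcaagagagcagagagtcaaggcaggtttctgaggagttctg
Cxcl10: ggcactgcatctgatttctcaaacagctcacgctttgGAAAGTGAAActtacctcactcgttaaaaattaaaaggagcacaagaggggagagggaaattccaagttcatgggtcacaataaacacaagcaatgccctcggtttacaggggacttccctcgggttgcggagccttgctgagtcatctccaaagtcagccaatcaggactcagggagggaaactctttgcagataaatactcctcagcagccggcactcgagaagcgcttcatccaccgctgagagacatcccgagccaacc
Of all 27025 RefSeq promoter windows of this length, 3.49% hold a match. A match describes the letters of the window and was not tested for binding.

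Genes induced mainly by interferon gamma did not come to lead in the omentum at 24 h. Of 14 such genes, chiefly GTPases of the Gbp and Irg families, 1 was higher and 5 were lower in the omentum at 24 h, against 0 and 6 when naive. Their median difference was -0.56 when naive, -0.09 at 24 h and -0.01 at 7 d. It thus rose from naive to 24 h, by less than that of the type I genes. Gbp8 and Gbp4 had the widest gaps of the list, both on the lower side. Gbp8 was at 4.76, 7.17 and 6.82 in the omentum and 51, 46.9 and 27.8 in the mesentery, and Gbp4 was at 5.4, 4.09 and 12.6 in the omentum and 26.6, 22.6 and 15 in the mesentery. The Gbp genes are close paralogs, between which reads may be divided. MHC class I presentation genes were lower for 6 and higher for 2 of 19 at 24 h, and lower for 4 when naive. Among all 7301 genes, 9.90% were lower and 14.0% higher at 24 h, and 7.86% were lower when naive. H2-Q6, a nonclassical class I gene with near-identical neighbours, was at 105, 37.2 and 103 in the omentum and 172, 190.4 and 155 in the mesentery. Calr, the chaperone calreticulin that helps class I molecules fold, was one of the higher genes at 673, 546 and 348 in the omentum and 390.4, 173 and 323 in the mesentery.

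Cell cycle genes were apart at 24 h and not in the libraries of the other time points. Of 25, 17 were at least 2-fold higher in the omentum at 24 h and none was lower, whereas no gene of the list was 2-fold apart when naive. The median difference was 1.38 at 24 h, -0.13 when naive and -0.16 at 7 d. Both tissues moved, and the median change from naive to 24 h was 0.91 in the omentum and -0.77 in the mesentery. Ccnb1, the cyclin that drives entry into mitosis, was at 6.83, 21.5 and 13.7 in the omentum and 7.56, 3.12 and 16.7 in the mesentery. Ccna2, the cyclin of S phase and G2, was at 13.8, 31.4 and 20.4 in the omentum and 16, 6.39 and 25 in the mesentery. Plk1, a mitotic kinase, was at 9.82, 26.9 and 15.2 in the omentum and 11.7, 5.74 and 19.6 in the mesentery, and Aurkb, the kinase of the chromosomal passenger complex, was at 17.2, 36.6 and 19.1 in the omentum and 14.4, 8.96 and 20.1 in the mesentery. MY 24h was the lowest of the 6 libraries for each of these 4 genes, and OM 24h was the highest. Under the rescaling to a common sum the median of the list was 1.09.

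The promoters of Plk1 and of Cdc20, an activator of the anaphase-promoting complex chosen after its values were seen, are printed because they hold letters of elements known from genes expressed in G2 and mitosis. Capitals mark the CCAAT box, searched as CCAAT, and the core of the cell cycle homology region, searched as TTTGAA, both on either strand. Cdc20 was at 13.4, 34 and 31 in the omentum and 21.8, 12.4 and 34.1 in the mesentery. The Plk1 window (chr7:122159185-122159484, plus strand) has 1 match of each, and the Cdc20 window (chr4:118437294-118437593, minus strand) has 2 CCAAT boxes and 1 TTTGAA.
Plk1: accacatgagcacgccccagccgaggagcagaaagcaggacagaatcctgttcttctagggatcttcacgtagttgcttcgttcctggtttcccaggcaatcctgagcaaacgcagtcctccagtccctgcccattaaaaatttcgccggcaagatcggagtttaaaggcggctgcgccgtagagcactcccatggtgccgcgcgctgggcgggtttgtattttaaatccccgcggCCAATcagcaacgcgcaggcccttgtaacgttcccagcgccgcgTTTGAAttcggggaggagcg
Cdc20: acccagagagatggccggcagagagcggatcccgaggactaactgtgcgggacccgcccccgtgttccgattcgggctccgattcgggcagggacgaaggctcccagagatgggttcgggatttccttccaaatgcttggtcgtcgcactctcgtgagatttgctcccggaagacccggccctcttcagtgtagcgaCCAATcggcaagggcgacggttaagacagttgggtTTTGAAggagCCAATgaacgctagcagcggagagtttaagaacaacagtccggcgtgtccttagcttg
These letters are common, since 37.9% of the 27025 windows hold CCAAT and 18.1% hold TTTGAA on one strand or the other.

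**Figure D4:**
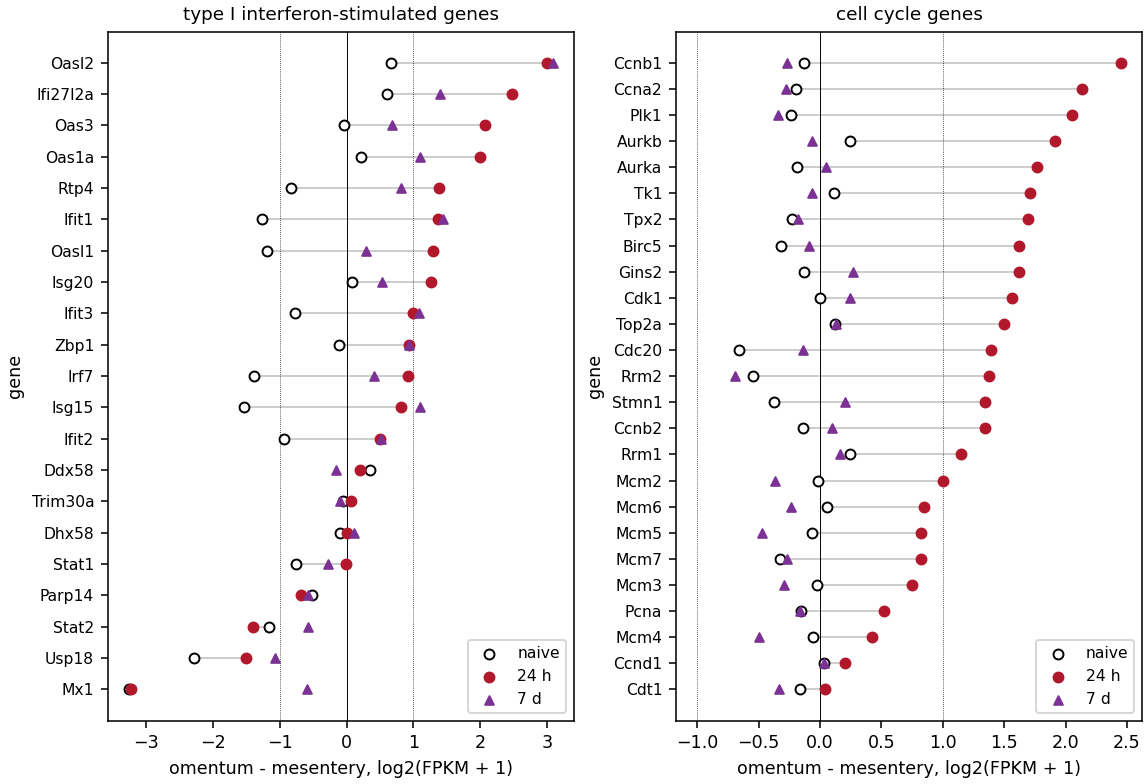
Difference between omentum and mesentery on the log2(FPKM + 1) scale for the 21 interferon-stimulated and 25 cell cycle genes, in naive animals, at 24 h and at 7 d, with 1 library per condition and dotted lines at 2-fold. No cell cycle gene lay past 2-fold when naive and 17 did at 24 h, while the interferon genes ran from Oasl2 at 3.00 to Mx1 at -3.22.

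Many of the genes furthest below the mesentery at 24 h belong to lymphocytes. All 15 natural killer and cytotoxic genes that passed were at least 2-fold lower in the omentum, and all 15 were already so when naive, with a median difference of -4.63 at 24 h, -2.38 when naive and -1.81 at 7 d. Gzma, the granule protease granzyme A, was at 142, 2.37 and 57.4 in the omentum and 1092, 667 and 449 in the mesentery, the largest lower gap of all genes above 0 in both libraries at -7.63. Gzmb, granzyme B, was at 17.4, 0.02 and 13.8 in the omentum and 142, 105 and 64 in the mesentery. Ncr1, the activating receptor NKp46, was at 26.2, 0.612 and 11.7 in the omentum and 148, 72.9 and 54.4 in the mesentery, and Nkg7, a granule membrane protein, was at 205, 13.3 and 138 in the omentum and 1050.3, 641 and 574 in the mesentery. For each of them the omentum was lower than the mesentery at every time and lowest at 24 h. Summed over the 17 listed genes the level was 642, 48.8 and 405 FPKM in the omentum and 3661, 2174 and 1762 in the mesentery, with Gzmk, Klra4 and Cd160 listed at 0 in OM 24h.

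T cell genes showed the same direction. All 14 were lower in the omentum at 24 h and 13 were when naive, with medians of -4.21 and -2.98. Cd8b1, a chain of the CD8 co-receptor, was at 4.2, 0.688 and 6.15 in the omentum and 195, 118 and 284 in the mesentery. Lck, the kinase of the T cell receptor, was at 46.6, 4.39 and 39.7 in the omentum and 333, 187 and 306 in the mesentery. Lef1 and Tcf7, transcription factors of naive T cells, were at 0.374 against 67 and 5.3 against 163 FPKM in the 24 h libraries of omentum and mesentery. Summed FPKM of the T cell list was 543, 93.2 and 407 in the omentum and 1846, 1108 and 2203 in the mesentery. T cells and natural killer cells are not macrophages, and the part of their RNA in the lower gaps was not tested.

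B cell genes had led in the naive omentum, and that lead was far narrower at 24 h. Of 10, 8 were higher and 2 lower when naive, and 1 was higher and 2 lower at 24 h, with a median that went from 2.07 to 0.29, below 0 under the rescaling to a common sum. Ms4a1, which encodes CD20, was at 883, 158 and 501 in the omentum and 88.8, 47.1 and 219 in the mesentery. Cd79a, a chain of the B cell receptor complex, was at 1551, 392 and 983 in the omentum and 336, 222 and 635 in the mesentery. The omental values at 24 h were below those at 0 h and 7 d in both. Summed over the 13 listed genes, the level was 4997, 1062 and 2934 FPKM in the omentum and 1151, 734 and 2224 in the mesentery. Fcer2a, the low-affinity IgE receptor, was lower in the omentum throughout at 20.2, 3.03 and 7.31 in the omentum and 51.8, 25.9 and 93 in the mesentery.

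Haemoglobin genes, which mark red cells, gave wide lower gaps at 24 h that were far smaller when naive. Hba-a2 was at 18.6, 0.248 and 25.8 in the omentum and 15.3, 201 and 108 in the mesentery, a difference of -7.34 at 24 h and 0.26 when naive. Hbb-b1 was at 14.8, 0.0437 and 66.4 in the omentum and 46.5, 202 and 98.8 in the mesentery. The alpha globin genes Hba-a1 and Hba-a2 are near-identical copies, and reads may be assigned to either. Summed over the 7 listed red cell genes, the level at 24 h was 0.91 FPKM in the omentum and 427 in the mesentery.

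Genes of dendritic cells were divided. Of 20, 4 were higher and 8 lower in the omentum at 24 h, and 5 and 5 when naive. The median difference was -0.29 at 24 h, -0.005 when naive and -0.21 at 7 d. Mgl2, described above, is on this list and was higher in the omentum by 4.76 at 24 h. Siglech, Fscn1 and Flt3 were among the lower genes. Siglech, a receptor of plasmacytoid dendritic cells, was at 1.15, 0.574 and 1.03 in the omentum and 29.9, 68.9 and 30.1 in the mesentery. Fscn1, the actin bundler of mature dendritic cells, was at 43, 22.4 and 31.5 in the omentum and 759, 399.9 and 280.4 in the mesentery. Flt3, the receptor for the growth factor that dendritic cells need, was at 24.6, 10.5 and 17.6 in the omentum and 47.2, 81.5 and 54.8 in the mesentery, and its difference of -2.84 at 24 h was -0.91 when naive. Of 10 MHC class II genes, 4 were higher and 2 lower at 24 h, against 6 and 1 when naive. H2-Ab1, a beta chain of class II, was at 10226, 15011 and 7017 in the omentum and 4487, 6223 and 6002 in the mesentery, and H2-Eb2, a minor class II beta gene, was at 8.32, 3.7 and 6.58 in the omentum and 17.8, 18.1 and 15.3 in the mesentery. The class II lead of the omentum was thus no wider at 24 h than before, with a median of 0.52 against 1.09.

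Genes of glycolysis and hypoxia were 1 of the groups whose 2-fold gaps were mostly new, though the median gap was small. Of 25, 10 were higher and 2 lower at 24 h, against 2 and 3 when naive. The median difference was 0.71 at 24 h (0.39 after the rescaling to a common sum), 0.20 when naive and 0.02 at 7 d. Vegfa, the vascular growth factor induced by hypoxia, was at 2.42, 11.7 and 11.1 in the omentum and 1.46, 0.597 and 0.351 in the mesentery. Slc16a3, a lactate exporter, was at 17.3, 72.4 and 21.4 in the omentum and 5.84, 12.3 and 7.14 in the mesentery. Pfkfb3, which makes an activator of glycolysis, went the other way at 13.1, 9.75 and 10.9 in the omentum and 63.1, 79.9 and 49.4 in the mesentery. The 74 genes of oxidative phosphorylation were alike in both tissues, with 1 of them 2-fold higher and none lower at 24 h and none apart when naive, and a median of 0.18 that falls below 0 under the rescaling to a common sum. None of 76 ribosomal protein genes was 2-fold apart at 24 h, and their median was -0.11 against 0.55 when naive.

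Beyond the groups, the widest gaps that were under 2-fold when naive and in which all 4 libraries were above 0 were on the higher side Amhr2, Arg1, Me1, Wnt10a, Csdc2, Gpr56, Cpe, Arhgdig, Cdc42ep1 and Anxa8, with differences from 7.76 to 4.44. Me1, the malic enzyme that supplies reducing power for fat synthesis, was at 0.816, 49.2 and 39 in the omentum and 0.313, 0.161 and 0.185 in the mesentery. Wnt10a, a secreted Wnt ligand, was at 0.486, 40.3 and 13.9 in the omentum and 0.326, 0.328 and 0.378 in the mesentery. Cpe, carboxypeptidase E, was at 4.67, 133 and 213 in the omentum and 5.5, 4.38 and 3.76 in the mesentery. In these 3 genes the mesentery stayed within a narrow range over the 3 times, and the omentum was far higher at 24 h and 7 d. On the lower side the genes were Hba-a2, Sapcd1, Cma1, Ccr3, Fxyd6, Flt3, Zfp366, Gimap3, Tpm2 and Txnip, from -7.34 to -2.64. Cma1, a mast cell chymase, was at 24.6, 0.0838 and 21.6 in the omentum and 21.9, 16.6 and 14.6 in the mesentery, a low point in OM 24h alone. Ccr3, the eotaxin receptor of eosinophils, was at 0.172, 0.0934 and 8.86 in the omentum and 0.371, 10.4 and 4.54 in the mesentery. Txnip, a thioredoxin-binding protein that limits glucose uptake, was at 142, 67.4 and 155 in the omentum and 239, 424 and 351 in the mesentery.

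Some genes were listed at 0 in 1 of the 24 h libraries and give no fold. There were 30 in MY 24h and 25 in OM 24h, of which 4 and 15 were short RNAs that this kind of library measures poorly. Lgals2, a galectin, was at 0.149, 57.1 and 59.8 in the omentum and 0, 0 and 0 in the mesentery. Elane, neutrophil elastase, was at 118, 39.4 and 235 in the omentum and 1.41, 0 and 0 in the mesentery. On the other side, Glycam1, a mucin-like ligand of L-selectin, was listed at 0 in OM 24h and at 55.1 FPKM in MY 24h.

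At 7 d, 926 of the 1745 genes (53.1%) were still 2-fold apart in the same direction, 603 of the 1022 higher genes (59.0%) and 323 of the 723 lower ones (44.7%). Whether the gap was already present in naive animals went with this share. Of the 569 higher genes with a gap absent when naive, 244 (42.9%) were still apart at 7 d, and of the 453 with a gap present when naive, 359 (79.2%) were. On the lower side, 64 of 326 (19.6%) and 259 of 397 (65.2%) were. The groups also differed in the width of the gap at 24 h. The median difference at 24 h was 1.508 for the 569 higher genes and 2.533 for the 453. For the lower genes it was -1.295 for the 326 and -2.228 for the 397. Whether presence when naive went with the share at 7 d among gaps of like width was not tested. The libraries at 7 d were not used to choose these genes, and each again was 1 library.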

How the data were processed

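Macrophages sorted from mouse omentum and mesenteric fat, naive and 24 h and 7 d after ID8, gave 6 RNA-seq samples, with 1 column of values per condition. As far as the sources used here state it, the authors used STAR 2.4.2a for alignment to mm9, after a read check in FastQC 0.11.4, with splice junctions from UCSC, and deposited FPKM per gene symbol computed with Cufflinks. The methods give sequencing depth as a range over the samples, not by library. FPKM are not counts, so the reads behind a value and its counting error are not known.

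Differences between libraries were taken on the log2(FPKM + 1) scale, which understates folds of low genes, with Python 3.11.15, numpy 2.4.6 and pandas 2.3.3, and plotted with matplotlib 3.10.9. Genes with at least 10 FPKM in OM 24h or MY 24h were kept, without Cd74. A gap was 2-fold or more, and it counted as present when naive if OM 0h and MY 0h were 2-fold apart in the same direction. With 1 library per condition no test was made and no p-value is given. Counting steps were tested on simulated data. Positions come from NCBIM37 with GENCODE M1, found for 190 of 196 named genes, and promoter windows from RefSeq (GRCm38.p6).

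The genes named are the 12 largest differences each way among genes above 0 in both libraries, the 10 largest each way absent when naive, the 5 highest genes listed at 0 on each side, up to 4 of each gene list, the 5 largest each way of opposite direction, and the genes at the FPKM limit. Other genes named were chosen after their values were seen. The members and gene lists were chosen with earlier results of these data known. Alternatives were pseudocounts of 0.1 and 5, other FPKM limits, other fold thresholds, and rescaling by the median ratio or to a common sum as TPM.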

Additional observations from a re-analysis of the deposited data

Results flagged for a closer look

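Some genes changed sides between the tissues. Of the genes 2-fold apart in opposite directions when naive and at 24 h, 21 were higher and 3 lower in the omentum at 24 h. None of these differences was tested, since each rests on 1 library per condition. The widest on the higher side at 24 h were Bok (4.31), a pro-apoptotic BCL2 family gene, Tspan15 (3.53), a tetraspanin, Stra6 (3.22), a vitamin A receptor, Gm11744 (3.02) and Tnni1 (2.75), a troponin. On the lower side they were Mir8104 (-4.85), Snn (-1.75) and Fam43a (-1.25). When naive, Stra6 differed by -1.09 and Snn by 1.06.

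Other genes stood out because the libraries of the tissues moved in opposite directions from naive to 24 h, each by at least 2-fold. In the omentum the change was -3.92 for Hbb-b1, -3.97 for Hba-a2, -1.39 for Sapcd1, -2.64 for Mir8104 and -1.54 for Fabp4, a fatty acid carrier of fat cells and macrophages, while the mesentery changed upward. The omentum changed upward and the mesentery downward for Ngp (1.28 in the omentum), Ltf (1.29) and Lcn2 (1.11), which encode granule proteins of neutrophils, and for the cyclins Ccnb1 (1.53) and Ccna2 (1.13). The difference between the tissues was not tested for any of them.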

How the results depend on the processing

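No paired analysis was possible because no group held more than 1 library. The counts moved with the limits that define them, in the order higher in the omentum at 24 h, of these absent when naive, lower in the omentum, and of these absent when naive. They were 1812, 1171, 1332 and 670 with an FPKM of at least 1 in either library, 568, 295, 358 and 163 with at least 30, and 461, 275, 279 and 165 with at least 10 in both. At a 4-fold threshold they were 452, 281, 290 and 135, and at 1.5-fold 1677, 882, 1317 and 629. In these 2 settings the threshold applied to the naive difference as well. Absent at 4-fold thus means no 4-fold naive gap, whereas the shares by width of gap given above kept the naive limit at 2-fold. Rescaling to a sum of 1000000, as TPM, raised the lower counts to 1139 and 583 and shifted the median of all genes by -0.31. The share of genes whose gap was absent when naive ranged from 50.5% to 64.6% on the higher side and from 36.4% to 59.1% on the lower side, and the share of the summed difference from 42.5% to 50.4%. These ranges include settings with another limit for a naive gap. Of 100 recomputed counts and shares, 78 stayed within 1.5 times of their value. Of 780 recomputed differences of named genes, 583 moved by less than 0.58 on the log2 scale, and none that was 2-fold apart changed sign. Reads per library are given only as a range over the samples and no read counts were used, so the precision of low FPKM was not computed.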

Other observations

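Several further groups of receptors and enzymes had more genes higher than lower in the omentum, both at 24 h and when naive. Of 9 Fc receptor genes, 6 were higher and 2 lower in the omentum at 24 h, against 5 and 1 when naive. Fcgr2b, the inhibitory receptor for IgG, was at 209, 453 and 151 in the omentum and 27.4, 39.8 and 32.1 in the mesentery, and Fcgr4, an activating one, was at 16.3, 118 and 34.3 in the omentum and 3.45, 13.7 and 7.12 in the mesentery, in the order naive, 24 h and 7 d. Of 16 complement genes, 12 were higher and none was lower at 24 h, against 9 and 1 when naive. C3ar1 and C5ar1, the receptors of the complement fragments C3a and C5a, were at 101 against 2.34 and 257 against 14.4 FPKM in OM 24h and MY 24h. Of 12 Toll-like receptor genes and partners, 6 were higher and none was lower at 24 h, against 7 and 1 when naive, with medians of 0.96 and 1.08, so that this gap was present before the injection. Tlr2, which senses bacterial lipoproteins, was at 31.3, 104 and 49.3 in the omentum and 7.36, 11.8 and 9.92 in the mesentery. Among 14 genes of prostaglandin and leukotriene synthesis, 7 were higher and 1 was lower, against 8 and 2 when naive. Ptgs1, the constitutive cyclooxygenase, was at 22.1, 92.1 and 25.3 in the omentum and 7.55, 11 and 8.13 in the mesentery, and Ltc4s, which makes leukotriene C4, was at 131, 303 and 23.5 in the omentum and 14.4, 46.5 and 9.61 in the mesentery.

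Galectins, lectins that bind galactose-containing sugars, were among the groups whose gap was mostly absent when naive. Of 7, 6 were higher at 24 h and 1 when naive. Lgals1 was at 611, 2009 and 2560.1 in the omentum and 423, 242 and 269 in the mesentery, and Lgals7 was at 2.76, 80.0 and 132 in the omentum and 0.770, 0.378 and 0.475 in the mesentery, so that both stayed high in the omentum at 7 d. Of 23 integrins and other adhesion genes, 8 were higher and 4 lower at 24 h, against 3 and 3 when naive, and their median of 0.16 fell below 0 after rescaling to a common sum. Itgb5, an integrin beta chain that binds vitronectin, was at 9.07, 192 and 37.0 in the omentum and 8.45, 14.7 and 9.43 in the mesentery, a difference of 3.61 at 24 h against 0.09 when naive. Of 14 costimulatory and checkpoint genes, 4 were higher and 3 lower at 24 h, against 4 and 1 when naive. Pvrl2, a nectin that binds lymphocyte receptors, was at 5.47, 51.6 and 46.6 in the omentum and 5.28, 8.45 and 5.30 in the mesentery, and Icosl, the ligand of ICOS, was at 17.4, 11.8 and 18.2 in the omentum and 48.0, 58.9 and 46.7 in the mesentery. Of 38 transcription factors of macrophages, 10 were higher and 6 lower at 24 h, against 6 and 6 when naive, with a median of 0.05 that also fell below 0 after the rescaling. Over all 7301 genes, 14.0% were higher and 9.90% lower at 24 h, and 8.59% and 7.86% when naive. Nfil3, a leucine zipper factor, was at 68.7 against 12.6 FPKM in OM 24h and MY 24h, and Rxra, the retinoid X receptor alpha, was at 12 against 72.5.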
